A study of Mus musculus with 12 samples.

Results

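The genes described here encode the laminin chains, the nidogens and agrin, the proteins that with type IV collagen make up a basement membrane. They were chosen by name, as the rows of the deposited tables with the symbols *Lama2*, *Lama3*, *Lama4*, *Lama5*, *Lamb1*, *Lamb2*, *Lamc1*, *Nid1*, *Nid2* and *Agrn*, and all 10 had a row among the 15838 genes of each table. RNAseq was performed on corneal endothelium with its Descemet membrane in 12 libraries, 3 for each combination of genotype (KO or WT) and sex, and the mice were 10 weeks old. KO mice were C57BL/6 mice homozygous for a targeted deletion within *Slc4a11* in the germline, WT mice (*Slc4a11*+/+) came from the same intercrosses of heterozygotes, and no other allele or treatment is stated for any group. The sample records describe pooled membranes and the paper's methods describe membranes processed as pairs, so the number of mice behind a library is uncertain.

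The tables give 1 level per gene, the authors' mean log2 CPM (mapped reads of the gene, scaled to a common library size), taken here as the mean over all 12 libraries, KO and WT and both sexes together. They hold no value for a single library or group, so no spread, interval or depth stands behind a level, and the knockout could not be checked library by library. The tables otherwise hold the authors' own tests of genotype, sex and their interaction. These were not used here, and no difference between KO and WT or between the sexes is reported. A level in CPM below is 2 raised to that mean, and levels of different genes are compared per kb of annotated exon, because a longer transcript yields more reads.

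Laminins are cross-shaped heterotrimers of 1 alpha, 1 beta and 1 gamma chain, which are joined in a coiled coil, secreted together and assembled into a sheet on the cell surface. The C-terminal globular domains of the alpha chain bind integrins and dystroglycan, the gamma chain encoded by *Lamc1* binds nidogen, and nidogen links the laminin sheet to the type IV collagen network. Agrin is a heparan sulfate proteoglycan that binds laminin. The Descemet membrane is the thick basement membrane that the corneal endothelium lays down on its stromal side throughout life.

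Transcripts for every part of a laminin trimer were present. *Lamb2*, *Lamc1* and *Lama5* stood at 81.5, 50.7 and 27.9 CPM per kb, followed by *Nid1* at 23.2, *Agrn* at 13.3, *Lamb1* at 10.6, *Lama2* at 8.19 and *Nid2* at 8.08 CPM per kb. *Lama4* at 0.314 and *Lama3* at 0.129 CPM per kb were far lower, and the highest and the lowest of the 10 genes were 633-fold apart. The median of the 10 genes was 11.9 CPM per kb, against 3.45 CPM per kb over the 15824 genes with an annotated length, and 8 of the 10 lay above that median of all genes. Without a spread between libraries, it cannot be said whether neighbours in this order differed.

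**Figure D1:**
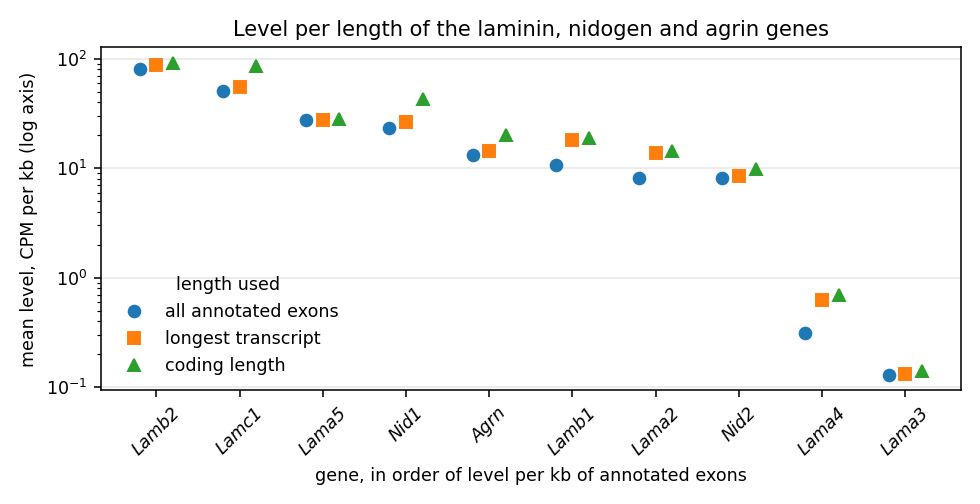
Mean level of each of the 10 genes in CPM per kb on a log axis, with 3 points per gene for the length used (all annotated exons, longest transcript, coding length); each point is the authors' mean over the libraries, so no error bars can be drawn. *Lamb2* and *Lamc1* come first with each length, and *Lama4* and *Lama3* last.

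The alpha chain sets which receptors a laminin binds. *Lama5* (ENSMUSG00000015647), whose chain is found in most mature epithelial and vascular basement membranes, is located on chromosome 2 (minus strand) from 180176373 to 180225859 in GRCm38. Its mean level was 8.31 log2 CPM, or 318 CPM, above that of 97.6% of all genes in CPM and of 92.9% in CPM per kb. *Lama2* (ENSMUSG00000019899), on chromosome 10 from 26980036 to 27619758, encodes the main alpha chain of muscle and Schwann cell basement membranes. It had 7.06 log2 CPM, or 134 CPM, above 92.5% of genes in CPM but above 71.9% per kb. *Lama4* (ENSMUSG00000019846), on chromosome 10 from 38965515 to 39110188 and known from the basement membranes of blood vessels, had 1.92 log2 CPM, or 3.79 CPM, above 29.7% of genes in CPM but above 6.84% per kb. *Lama3* (ENSMUSG00000024421), on chromosome 18 from 12333819 to 12583013, encodes the alpha chain of the laminin under the hemidesmosomes of stratified epithelia. Its level was 0.47 log2 CPM, or 1.38 CPM, above 14.8% of genes in CPM but above 1.62% per kb.

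Of the summed level of the 4 alpha chains described here, 36.5 CPM per kb, *Lama5* made up 76.4% and *Lama2* 22.4%, whereas *Lama4* and *Lama3* made up 0.860% and 0.353%. The alpha chain gene *Lama1*, at 0.964 CPM per kb and so above *Lama4* and *Lama3*, is not part of this sum. The share of *Lama2* depended on its length. Its 8 annotated transcripts cover 16338 exonic bases, but the longest of them has 9614 bases, and with the longest transcript as the length *Lama2* made up 32.7% and *Lama5* 65.5%. *Lama4* is annotated in a similar way, with 12068 exonic bases and a longest transcript of 6046 bases. For *Lama5* both lengths were 11388 bases.

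The 2 beta chains can take the same place in a trimer. *Lamb2* (ENSMUSG00000052911), on chromosome 9 from 108479736 to 108490530, encodes the beta chain of the neuromuscular synapse and the kidney glomerulus, and its loss in humans affects kidney and eye. It had 8.95 log2 CPM, or 496 CPM, the highest level of the 10 genes, above 98.7% of all genes in CPM and 98.2% per kb. *Lamb1* (ENSMUSG00000002900), on chromosome 12 from 31265234 to 31329644, encodes the beta chain that most embryonic and many adult laminins hold. Its level was 6.72 log2 CPM, or 105 CPM, above 89.9% of genes in CPM and 77.9% per kb. Per kb of annotated exon *Lamb2* was 7.69 times *Lamb1*. The ratio fell to 4.84 with the longest transcripts as lengths, since *Lamb1* has 9917 exonic bases but a longest transcript of 5784 bases.

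Both beta chain genes have a promoter window in RefSeq for GRCm38.p6, from 250 bases before to 50 bases after the annotated start, and these 300 bases are shown because the pair differs in level and in base composition. The capitals mark each CG dinucleotide, and both windows are on the plus strand, chr12:31265043-31265342 for *Lamb1* and chr9:108479612-108479911 for *Lamb2*.
Lamb1: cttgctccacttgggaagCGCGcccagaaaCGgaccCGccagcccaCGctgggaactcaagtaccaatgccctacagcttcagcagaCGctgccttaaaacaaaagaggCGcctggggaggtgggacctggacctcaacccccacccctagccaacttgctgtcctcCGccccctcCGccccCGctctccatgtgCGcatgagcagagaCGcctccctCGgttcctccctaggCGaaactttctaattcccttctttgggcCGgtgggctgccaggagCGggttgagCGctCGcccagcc
Lamb2: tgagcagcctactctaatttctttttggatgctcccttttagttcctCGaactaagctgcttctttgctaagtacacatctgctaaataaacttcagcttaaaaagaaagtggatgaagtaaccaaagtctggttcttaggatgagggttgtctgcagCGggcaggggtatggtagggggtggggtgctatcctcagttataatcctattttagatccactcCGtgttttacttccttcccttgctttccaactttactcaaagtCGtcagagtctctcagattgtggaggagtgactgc

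The *Lamb1* window held 18 CG dinucleotides and 63.7% G and C, and the *Lamb2* window 4 CG dinucleotides and 44.0% G and C. Over the 32851 windows of this length the medians were 7 and 52.7%. The beta chain gene with the higher level had the window with fewer CG. This describes 1 pair of genes, and whether the number of CG goes with the level was not tested. Of the 10 genes, 6 had a window, and those of *Lama5*, *Nid1* and *Agrn* held 24, 20 and 42 CG dinucleotides, the last at the more upstream of its 2 annotated starts, whereas the *Lama2* window held 1. That *Lama2* window, 27616893-27617192 on the minus strand, lay inside the gene, whose annotated span begins on that strand at 27619758. The letters GGGCGG, the core of a GC box, searched on both strands and with overlaps counted, were in a window of 5 of these 6 genes and in 35.7% of all windows. *Lamb2* was the gene without them. The letters TATAAA, searched in the same way, were in none of the windows of the 6 genes and in 13.6% of all windows. A match describes the letters of a window and does not show that a factor binds there.

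*Lamc1* (ENSMUSG00000026478), on chromosome 1 (minus strand) from 153218922 to 153332786, encodes the gamma chain shared by most laminins. With 8.71 log2 CPM, or 420 CPM, it lay above 98.4% of all genes in CPM and 96.5% per kb. Relative to *Lamc1*, the summed beta chains stood at 1.82 and the summed alpha chains at 0.720 in level per kb. With coding length in place of exonic length these ratios were 1.27 and 0.501, because *Lamc1* has 8272 exonic bases but only 4821 coding bases. Of the laminin chains outside the 10 genes, *Lama1* had 0.964 and *Lamc3* 0.148 CPM per kb. *Lamb3* and *Lamb4* were looked for but had no row among the filtered genes, and so have no level here.

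**Figure D2:**
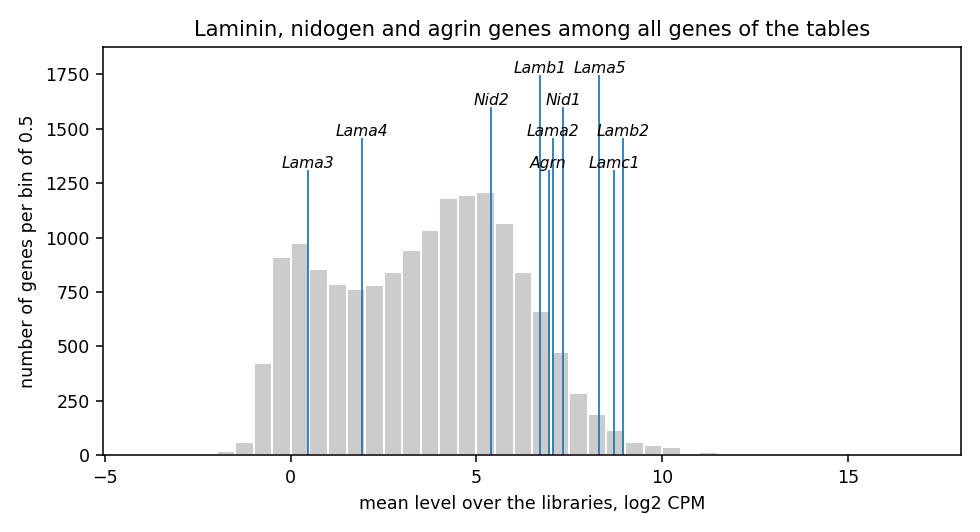
Histogram of the mean level of all 15838 genes in log2 CPM, in bins of 0.5, with the 10 genes marked by vertical lines whose heights only separate the names. *Lamb2*, *Lamc1* and *Lama5* lie in the upper tail, and *Lama4* and *Lama3* lie below the median of all genes, 3.76 log2 CPM.

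The nidogens connect the laminin and collagen networks, and both bind the gamma chain. *Nid1* (ENSMUSG00000005397), on chromosome 13 from 13437551 to 13512269, had 7.33 log2 CPM, or 161 CPM, above 94.2% of genes in CPM and 91.0% per kb. *Nid2* (ENSMUSG00000021806), on chromosome 14 from 19751265 to 19811787, had 5.39 log2 CPM, or 41.8 CPM, above 74.0% of genes in CPM and 71.7% per kb. *Nid1* was thus 2.87 times *Nid2* per kb of annotated exon, and 4.35 times with coding length. Summed, the nidogens reached 31.3 CPM per kb, 0.618 of the *Lamc1* level. Of the 5174 exonic bases of *Nid2*, 437 are shared with the exons of *Rtraf* on the other strand. The library kit keeps strand, but whether the authors' counting used it is not given in the sources used here, so reads of these 2 genes may not be separated in that stretch. *Lama2*, *Lama3* and *Nid1* share 631, 197 and 143 exonic bases with a gene on the other strand that has no row in the tables.

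*Agrn* (ENSMUSG00000041936), on chromosome 4 (minus strand) from 156165290 to 156197488, encodes the proteoglycan agrin, which at the neuromuscular synapse acts through LRP4 and the kinase MuSK. It had 6.94 log2 CPM, or 123 CPM, above 91.7% of genes in CPM and 82.7% per kb, and its level per kb was 0.262 of that of *Lamc1*. Both parts of its synaptic receptor had a row, with *Musk* at 48.8 and *Lrp4* at 7.84 CPM per kb. Among 21 of 22 listed genes of agrin reception and heparan sulfate synthesis, *Musk*, the sulfatase gene *Sulf1* at 36.9 and the chain polymerase gene *Ext2* at 34.2 CPM per kb came first. *Hs3st3b1* at 0.477 and *Sulf2* at 0.637 CPM per kb came last, and 19 of the 21 were above the median of all genes. *Hspg2*, which encodes perlecan, the other large heparan sulfate proteoglycan of basement membranes, had 119 CPM per kb, above each of the 10 genes described here.

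Receptors for laminin were read from a list of 20 genes, of which 19 had a row and 16 were above the median of all genes, with a median of 8.36 CPM per kb. The highest were *Sdc4*, a syndecan, at 433, *Itgb1*, the beta subunit of most laminin-binding integrins, at 146, and *Sdc2* at 114 CPM per kb. *Dag1*, which encodes dystroglycan, stood at 77.9 and *Bcam*, a receptor for the alpha chain of *Lama5*, at 74.8 CPM per kb. Of the alpha subunits that pair with *Itgb1* to bind laminin, *Itga3* had 48.7, *Itga6* 8.36 and *Itga7* 7.36 CPM per kb. *Itgb4*, the partner of *Itga6* in hemidesmosomes, had 1.07 CPM per kb. The lowest of the list were *Itgb3* at 0.393 and *Sgcd*, a sarcoglycan, at 0.971 CPM per kb. Dystroglycan binds laminin through a sugar chain, and 13 of 14 listed genes for making it had a row. *Pomgnt1* at 11.4 and *Pomk* at 8.61 CPM per kb were the highest, *Large2* had 0.882 CPM per kb, and 9 of the 13 were above the median of all genes.

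Several other structural genes of basement membranes had higher levels than any of the 10 genes. Of 25 listed genes 24 had a row, with a median of 49.6 CPM per kb, and 12 were at or above the level of *Lamc1*. *Col8a2*, a short-chain collagen of the Descemet membrane, had 1582, *Npnt*, an integrin ligand, 798, and *Col4a1*, a type IV collagen chain, 646 CPM per kb. *Col17a1* at 0.571 and *Col15a1* at 0.102 CPM per kb were the lowest. Among 16 of 18 listed laminin chains and genes for assembling matrix proteins, *Sparc*, a collagen-binding matrix protein gene, led with 720, followed by *P4hb* with 209 and the collagen chaperone gene *Serpinh1* with 197 CPM per kb.

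**Figure D3:**
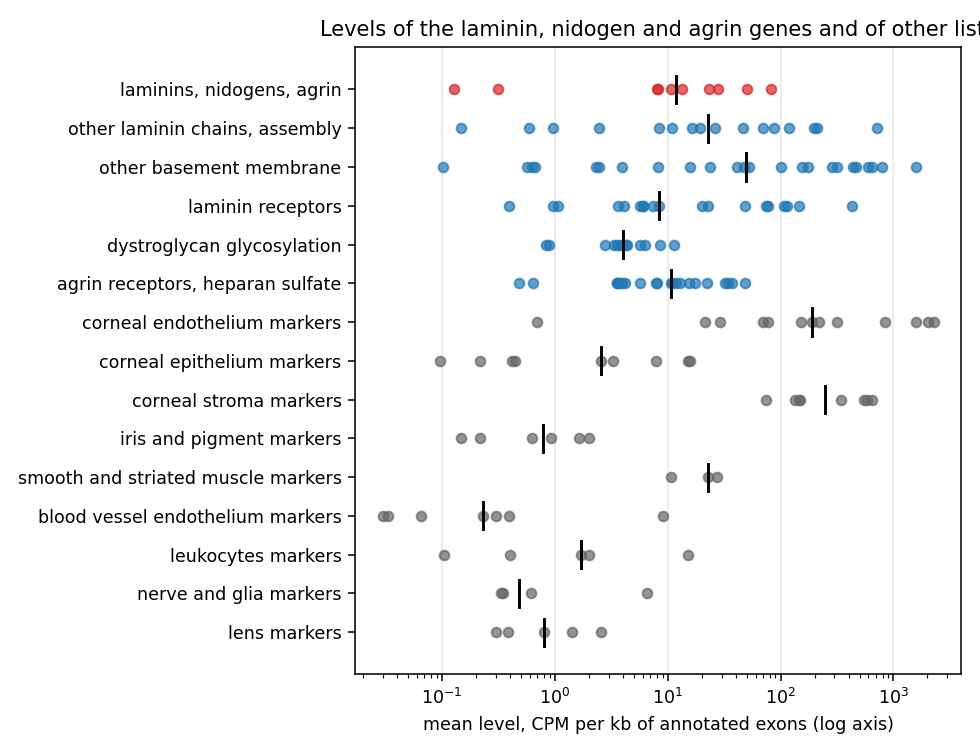
Mean level in CPM per kb of annotated exon, on a log axis, of the 10 genes (red), of 5 lists of related genes (blue) and of marker genes of 9 tissues or cell types (grey); each point is a gene and each black bar the median of its list. The 10 genes span the range from 0.129 to 81.5 CPM per kb, and the corneal endothelium and stroma markers lie mostly above them.

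Markers of the labelled tissue were high, with 12 of 13 corneal endothelium markers above the median of all genes and a list median of 191 CPM per kb. The highest were *Car3* at 2264, the water channel gene *Aqp1* at 2009 and *Col8a2*, and the lowest were *Enpp2* at 0.691 and *Prdx6* at 21.5 CPM per kb. Markers of the corneal stroma, which faces the Descemet membrane, were also high, with all 8 above the level of *Lamc1*, from 74.4 for *Col5a1* and 134 for *Ogn* to 548 for *Aldh3a1*, 583 for *Col1a1* and 650 CPM per kb for *Dcn*. The keratocyte gene *Kera* had 150 CPM per kb. In bulk RNA the share of a cell type and its RNA per cell cannot be told apart, and how much of the level of each laminin gene came from stromal cells was not tested. Blood vessel endothelium, a known source of *Lama4*, had low markers, with *Pecam1* at 0.304, *Cdh5* at 0.389, *Vwf* at 0.0333 and *Flt1* at 0.0299 CPM per kb, and *Kdr* alone of 7, at 9.10 CPM per kb, above the median of all genes. Corneal epithelium, a known source of *Lama3*, had *Krt5* at 15.8, *Krt15* at 15.2 and *Perp* at 7.92 CPM per kb at the upper end of 9 genes and *Cdh1* at 0.217 and *Dsg1a* at 0.0961 at the lower end. The part of vessels in the level of *Lama4* and of epithelium in that of *Lama3* was not tested.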

How the data were processed

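Levels were read from 3 tables covering 12 libraries in 4 groups. The authors aligned reads to GRCm38/mm10 with Hisat2, scaled the read counts by TMM to CPM, and used limma-voom for the genotype by sex design. The table they deposited for each term holds the mean log2 CPM per gene, which was used, and the fold change, t, p-value, adjusted p-value and log-odds of their own comparisons, which were not used. The gene annotation, the counter and the tool versions are not given in the sources used here. The authors had already filtered the genes, whose levels ran from -3.24 to 16.04 log2 CPM. The mean was equal in the 3 tables (largest difference 0). Depth is unknown, and no test could be run on 1 value per gene, so the planned limma fit was left out.

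Levels were divided by the bases covered by any exon in GENCODE M21 (GRCm38), which held 15824 of the 15838 genes, with pandas 2.3.3. Length, table and a minimum of 1 CPM were varied. Of each list, at least the 3 highest and 2 lowest genes are named (all where fewer had a row), and other genes for their function; some genes under this rule are not reported here. The genes and lists were chosen with earlier results of these data known. The length and motif functions were tested on simulated data.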

Additional observations from a re-analysis of the deposited data

How the results depend on the processing

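No result rests on a test, and without values per library the spread, the depth and the effect of leaving out a library remain unknown. No paired analysis was possible because the tables hold no value per library. The choice of length changed the printed digits of every ratio and share, some of them only slightly. With the longest transcript, with coding length and with no length in turn, the share of *Lama5* among the alpha chains was 65.5, 65.3 and 69.6%, that of *Lama2* 32.7, 32.8 and 29.3%, that of *Lama4* 1.47, 1.60 and 0.830%, and that of *Lama3* 0.308, 0.318 and 0.303%. In the same order, *Lamb2* to *Lamb1* was 4.84, 4.81 and 4.71, *Nid1* to *Nid2* 3.09, 4.35 and 3.86, the summed alpha chains to *Lamc1* 0.773, 0.501 and 1.09, and the summed beta chains to *Lamc1* 1.93, 1.27 and 1.43. *Lamb2* and *Lamc1* came first and *Nid2*, *Lama4* and *Lama3* last with each length, whereas *Nid1* passed *Lama5* with coding length *Lamb1* passed *Agrn* with the longest transcript, and *Lama2* passed *Agrn* and *Lamb1* with no length. Ranked per kb in place of CPM, all 10 genes lay above a smaller share of genes, *Lama2* above 71.9 in place of 92.5%, *Lama4* above 6.84 in place of 29.7% and *Lama3* above 1.62 in place of 14.8%. Among the 14407 genes of at least 1 CPM, *Lama4* lay above 22.7% and *Lama3* above 6.35% of genes. The level of each of the 10 genes was the same in all 3 tables.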

Other observations

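Of 8 muscle genes, 3 had a row, *Myh11* at 27.1, *Acta2* at 22.7 and *Synpo2* at 10.8 CPM per kb. Per kb of annotated exon all 3 lay above the median of all genes, 3.45, and above *Lama2* at 8.19 CPM per kb. The order against *Lama2* depended on the length. With no length, *Lama2* at 134 CPM lay above *Acta2* at 49.8 CPM and below *Synpo2* at 141 and *Myh11* at 206 CPM. The muscle genes without a row, and so without a level here, were *Des*, *Cnn1*, *Tagln*, *Actg2* and *Ckm*. Of 7 iris and pigment genes, 6 had a row and none was above the median of all genes, from 0.149 for *Tyr* and 0.217 for *Oca2* to 0.924 for *Tyrp1*, 1.63 for *Dct* and 2.00 CPM per kb for *Pmel*. Of 6 lens genes, 5 had a row, with *Bfsp1* at 2.59, *Cryba1* at 1.41, *Cryaa* at 0.799, *Mip* at 0.387 and *Crygd* at 0.304 CPM per kb. Of 6 leukocyte genes, 5 had a row, with *Lyz2* at 15.0, *Cd68* at 2.02, *Csf1r* at 1.69, *Itgam* at 0.404 and *Ptprc* at 0.104 CPM per kb. Of 6 nerve and glia genes, 4 had a row, among them *Mbp* at 6.49 and *Sox10* at 0.349 CPM per kb. Muscle and Schwann cells are known sources of *Lama2*, and the part of any of these tissues in its level was not tested.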
